A study of Mus musculus with 4 samples.

Results

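Snai1, Snai2, Zeb1 and Zeb2 encode zinc finger repressors of epithelial genes, and their chromatin loops were read from 4 lists of Hi-C loops in mouse uterus. The 4 genes were chosen on measured loop values of these lists, so their loop numbers are given as a description and were not tested. A loop was assigned to a gene when an anchor, the genomic bin of 5, 10 or 25 kb at either foot of the loop, overlapped the RefSeq gene body with 10 kb added on each side. By this rule 88 of 59353 listed loops belonged to the 4 genes. Vehicle replicate 2 held 27 of them, vehicle replicate 3 held 15, the progesterone list 18 and the knockout list 28. With no added window the numbers were 24, 14, 17 and 27, and with 25 kb added they were 29, 16, 19 and 29.

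Hi-C ligates DNA ends that lie close together in the nucleus, and a listed loop is a pair of bins called as contacting each other. The uteri came from female C57BL/6J mice over 10 weeks of age, ovariectomized and then rested for 10 to 14 days, so all 4 libraries share the loss of ovarian hormones. The 2 wild-type (WT) vehicle libraries, labelled replicates 2 and 3, followed an intraperitoneal injection of 100 ul saline. The WT progesterone library followed 1 mg progesterone (P4) in 100 ul sesame oil given under the skin, so it also differed from vehicle in carrier and route. The knockout library came from saline-injected mice labelled Ex3aERKO, which lack estrogen receptor alpha. Tissue was frozen 1 hour after injection. Whether a library was made from a single animal or a pool is not stated in the labels, and a whole uterus mixes epithelium, stroma, muscle and vessels. Loop lists carry no expression values, so the tissue could not be checked against marker levels and the cells that formed a loop cannot be told apart.

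The Snai proteins (Snail and Slug) and the Zeb proteins bind E-box sequences of the form CAGGTG through zinc fingers. They recruit corepressors to epithelial genes such as the E-cadherin gene Cdh1, which is the core of the epithelial-mesenchymal transition. In embryos they act in gastrulation and in neural crest, and in adult tissue they mark stromal and other mesenchymal cells. The Zeb factors and the miR-200 microRNAs repress each other. In the uterus, epithelium and stroma lie side by side and ovarian steroids act on both.

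The promoters of these genes are themselves places where such E-boxes can lie, so those that sit within loop anchors are shown. RefSeq sequences (GRCm38.p6), running from 250 bases before to 50 bases after a start site, matched 2 of the 4 genes, with 1 entry for Snai1 and 4 for Zeb2. CAGGTG and its reverse complement CACCTG were searched, which covers both strands, and so was the general E-box CANNTG, of which both are forms. The capitals mark the CACCTG in the Snai1 promoter, which begins at position -126 from the start site. The Zeb2 promoters hold no capitals because none of the 4 contained either form, or any other CANNTG. Here the outermost and the innermost Zeb2 promoters are given, 5′ to 3′ on the gene's strand.
Snai1, chr2:167537945-167538244, plus strand: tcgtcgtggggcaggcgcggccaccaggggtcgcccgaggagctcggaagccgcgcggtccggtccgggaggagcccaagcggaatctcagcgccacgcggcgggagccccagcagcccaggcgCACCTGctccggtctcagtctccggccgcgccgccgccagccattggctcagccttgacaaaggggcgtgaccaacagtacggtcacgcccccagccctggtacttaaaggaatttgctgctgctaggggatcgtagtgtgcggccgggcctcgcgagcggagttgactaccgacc
Zeb2 outermost start, chr2:45117393-45117692, minus strand: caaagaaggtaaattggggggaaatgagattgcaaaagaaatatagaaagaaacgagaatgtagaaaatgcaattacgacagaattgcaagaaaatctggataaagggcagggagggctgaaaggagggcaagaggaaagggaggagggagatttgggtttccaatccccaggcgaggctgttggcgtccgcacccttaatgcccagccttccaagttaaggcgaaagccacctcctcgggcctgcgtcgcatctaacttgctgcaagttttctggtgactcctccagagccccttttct
Zeb2 innermost start, chr2:45110228-45110527, minus strand: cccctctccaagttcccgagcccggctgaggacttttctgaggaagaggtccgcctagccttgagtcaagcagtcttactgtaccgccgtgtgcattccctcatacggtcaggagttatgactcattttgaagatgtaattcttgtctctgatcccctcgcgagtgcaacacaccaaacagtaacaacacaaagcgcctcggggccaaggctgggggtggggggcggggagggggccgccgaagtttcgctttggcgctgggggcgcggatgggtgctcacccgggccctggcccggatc
The Snai1 promoter had a GC content of 70.0% and 34 CpG sites. The Zeb2 promoters printed had a GC content of 49.3% and 60.7%, with 9 and 19 CpG sites. Of 32851 RefSeq promoter windows of this length, 20.2% held CAGGTG (on either strand) and 72.3% held CANNTG. A match is a description of letters and not of bound protein.

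The lists differed in size, with 16387 and 9385 loops in vehicle replicates 2 and 3, 11752 with progesterone and 21829 in the knockout. Read depth and contact counts are unknown, as the lists give positions only. A loop missing from a list was therefore not called there, which is not the same as absent. Because the progesterone and knockout groups have 1 library each, no condition could be tested, and the spread of the 2 vehicle libraries is the only replicate error. Of 21631 protein-coding genes, the share with at least 1 loop was 57.5% in vehicle replicate 2, 45.3% in vehicle replicate 3, 50.0% with progesterone and 65.1% in the knockout. All 4 member genes had loops in all 4 lists.

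With all anchor sizes counted, Snai2 and Zeb2 carried the most loops, and Zeb1 and Snai1 the fewest. Snai2 had 10 and 6 loops in the vehicle replicates, 5 with progesterone and 11 in the knockout. Zeb2 had 10 and 4 loops in vehicle, 6 with progesterone and 11 in the knockout. The order of these genes therefore changed between lists, and their vehicle means of 8.0 ± 2.83 and 7.0 ± 4.24 loops (SD, n = 2) did not differ beyond their spread. Zeb1 had 4 and 2 loops in vehicle and 4 in each of the other lists, a vehicle mean of 3.0 ± 1.41 (SD, n = 2). Snai1 had 3 loops in each vehicle list, 3 with progesterone and 2 in the knockout. The vehicle range of Snai2 (6 to 10) did not overlap those of Snai1 and Zeb1, whereas the lower vehicle value of Zeb2 equalled the higher value of Zeb1. The place of Snai2 in this order depended on anchor size. With 5 kb anchors only, Snai2 had 0 loops in both vehicle lists, 2 with progesterone and 0 in the knockout. Snai1 then had 3 and 2 loops in vehicle and 2 in each other list, Zeb1 had 3, 0, 1 and 4, and Zeb2 had 9, 1, 3 and 7.

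Set against the length of each list, the libraries lay closer together at Snai2 and Zeb2 and farther apart at Snai1. Snai2 took 6.1 and 6.39 of every 10000 loops in the vehicle lists, 4.25 with progesterone and 5.04 in the knockout. Zeb2 took 6.1 and 4.26 in vehicle, 5.11 with progesterone and 5.04 in the knockout, so both the other lists lay within its vehicle range. Zeb1 took 2.44 and 2.13 in vehicle, 3.4 with progesterone and 1.83 in the knockout, above and below the vehicle pair. Snai1 took 1.83 and 3.2 in vehicle, 2.55 with progesterone and 0.916 in the knockout. The 4 genes together took 16.5 and 16.0 of every 10000 loops in vehicle, 15.3 with progesterone and 12.8 in the knockout. Values outside the vehicle range rest on few loops, 2 at Snai1, 4 at Zeb1, and 5 and 11 at Snai2, where both other lists lay below vehicle.

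**Figure D1:**
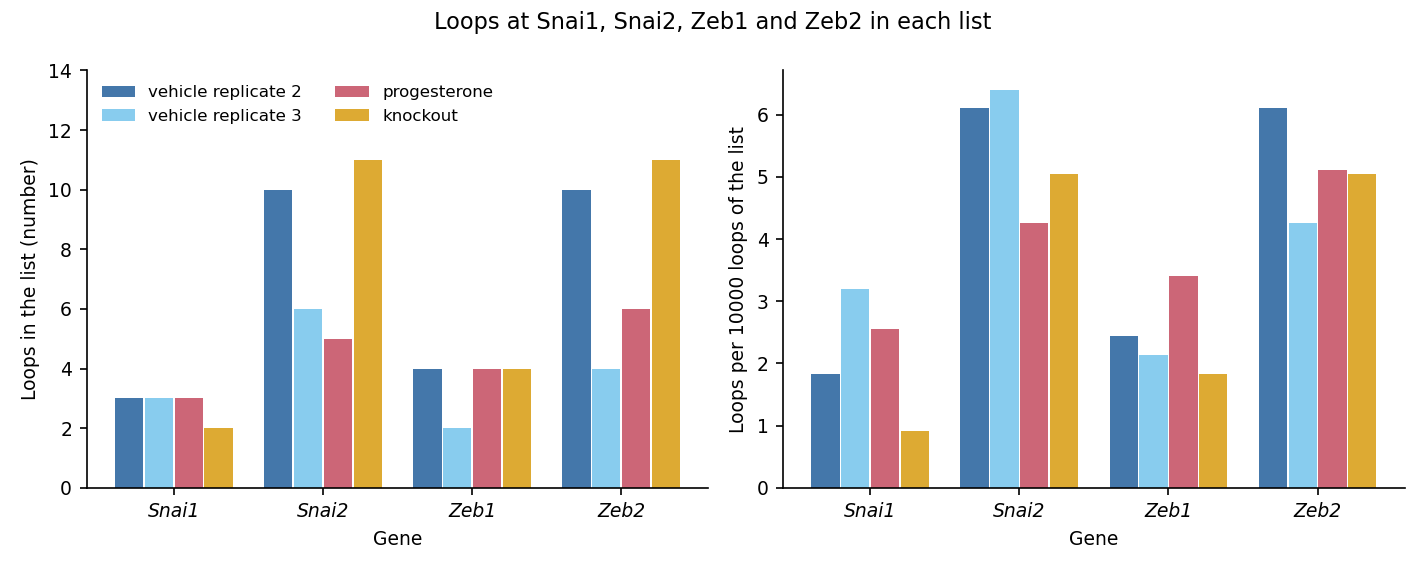
Bars give the number of loops at each gene (left) and the number per 10000 loops of the same list (right) for the 4 libraries, 1 bar per library and no error bar. Snai2 and Zeb2 reach 11 loops in the knockout list, while Snai1 stays at 2 or 3 in all lists.

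With all anchor sizes counted, Snai2 had many loops for its size beside other genes. The genes were chosen on loop values of these lists, so their ranks are a description and no test. Ranks with 5 kb anchors only, where Snai2 had few or no loops, were not computed. At least as many loops as Snai2 were found at 0.495% and 0.749% of all protein-coding genes in the vehicle lists, 2.64% with progesterone and 0.624% in the knockout. Among the 7741 genes with bodies under 10 kb, the class of Snai1 and Snai2, these shares were 0.323%, 0.323%, 1.02% and 0.245%. Long genes meet more anchors, so Zeb1 and Zeb2 were also read against the 1437 genes of 100 to 200 kb. In that class, 0.835% and 10.6% of genes had at least as many loops as Zeb2 in vehicle, 3.62% with progesterone and 1.6% in the knockout. Zeb1 was ordinary for its length, with 30.2% and 46.5% of the class at or above it in vehicle, 17.5% with progesterone and 42.4% in the knockout. Snai1 was matched or exceeded by 9.56% and 3.77% of its class in vehicle, 5.3% with progesterone and 29.2% in the knockout.

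Snai1, which encodes Snail, is a short gene of 4.6 kb at chr2:167538195-167542814 on the plus strand of mm10, between Rnf114 (22.0 kb away) and Ube2v1 (64.8 kb away). Its 11 loops reduced to 3 distinct loops, and all of them ran toward higher coordinates. The shortest, 60 to 65 kb long, was called in all 4 lists and ended 2.6 to 7.6 kb from Ube2v1, which encodes a ubiquitin-conjugating enzyme variant. Its far anchor overlapped the noncoding gene Gm11476, named after its position was seen, in all 4 lists, and the body of Ube2v1 in none. This loop's near anchor, chr2:167535001-167540000, held the Snai1 start site and the promoter printed above in every list.

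A 145 kb loop, also called in all 4 lists, ended 3.9 to 8.9 kb from Cebpb, which encodes a basic leucine zipper factor needed for decidualization of uterine stroma. In the 3 WT lists its Snai1 anchor was chr2:167530001-167535000, which stops short of the gene. In the knockout list the anchor was the next bin, chr2:167535001-167540000, with the far anchor shifted by the same step. The third loop, 350 to 370 kb long, joined Snai1 to chr2:167875001-167905000 in the 3 WT lists and had no match in the knockout list. The far anchor of that loop carried 2 listed loops in each of the 4 lists, so other contacts were called there in the knockout. Vehicle replicate 2 kept only 1 of the 3 Snai1 loops when no window was added to the gene, because 2 near anchors ended just before the gene.

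Snai2, which encodes Slug, spans 3.5 kb at chr16:14705852-14709395. Its nearest protein-coding neighbours are LOC115488637 (71.7 kb) and Efcab1 (196.8 kb), and 18 protein-coding genes lie within 1 Mb. All 32 Snai2 loops, from 190 to 1400 kb long, ran toward higher coordinates in all 4 lists. The near anchor held the whole gene in 31 of the 32, most often chr16:14700001-14710000. Among genes with at least 5 loops leaving the gene, far anchors all on 1 side were found at 21.8% of 864 genes in vehicle replicate 2 and 20.6% of 243 in vehicle replicate 3. The same share was 22.7% of 375 genes with progesterone and 16.9% of 1844 in the knockout, so a fan in 1 direction is not rare.

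The fan at Snai2 comprised 13 distinct loops, of which 5 were called in all 4 lists. These 5 were 225 to 230, 380, 410, 575 to 590 and 920 to 930 kb long, and they were also the whole progesterone list of this gene. The first ended inside Efcab1, which encodes a calcium-binding protein. The longest of the 5 ended at Mcm4 and Prkdc, which encode a subunit of the replicative helicase and the DNA-dependent protein kinase. A 190 kb loop to chr16:14890001-14900000 was called in both vehicle lists and in neither other list. Loops of 350 and 490 kb were shared by vehicle replicate 2 and the knockout, those of 550 and 1400 kb were called only in vehicle replicate 2, and those of 650, 890 and 1175 kb only in the knockout.

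The 2 Snai genes lie in similarly ordered neighbourhoods. Snai1 is followed by Ube2v1 and, 146.1 kb away, Cebpb. Snai2 is followed by Ube2v2 and, 1177.9 kb away, Cebpd, a relative of Cebpb. The loops to these partners differed. Snai1 met Cebpb in all 4 lists, by 1 of the 4 and 3 vehicle loops of Cebpb and by 1 of 3 in each of the other lists. In the 3 WT lists this loop touched neither gene body and was counted only through the 10 kb window. In the knockout it touched the body of Snai1, but its far anchor lay 3.9 kb from Cebpb. Cebpb was thus met only through the window in every list. Snai2 met Cebpd only in the knockout, through the 1175 kb loop, which was 1 of 5 Cebpd loops there, and in none of the 3 Cebpd loops of each WT list. That loop has anchors of 25 kb, which overlap the bodies of both Snai2 and Cebpd. Its far anchor chr16:15875001-15900000 also covers part of Spidr, a DNA repair gene. Ube2v2 was reached only by the 890 kb knockout loop.

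Pooled over all lists, far anchors of Snai2 were in part joined to each other. Loops between these pooled anchors numbered 7 and 2 in vehicle, 1 with progesterone and 11 in the knockout. In vehicle replicate 3 and with progesterone, no listed loop joined far anchors that Snai2 reached in the same list. Every such loop there used an anchor that Snai2 reached only in other lists, as did some loops of vehicle replicate 2 and the knockout. None were listed between far anchors of Snai1. No loop of at most 2 Mb passed over Snai2 from side to side in any list, and 1 passed over Snai1, in the knockout. A value of 0 was common, being shared by 50.5%, 66.2%, 60.4% and 44.1% of all protein-coding genes in the 2 vehicle, progesterone and knockout lists.

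**Figure D2:**
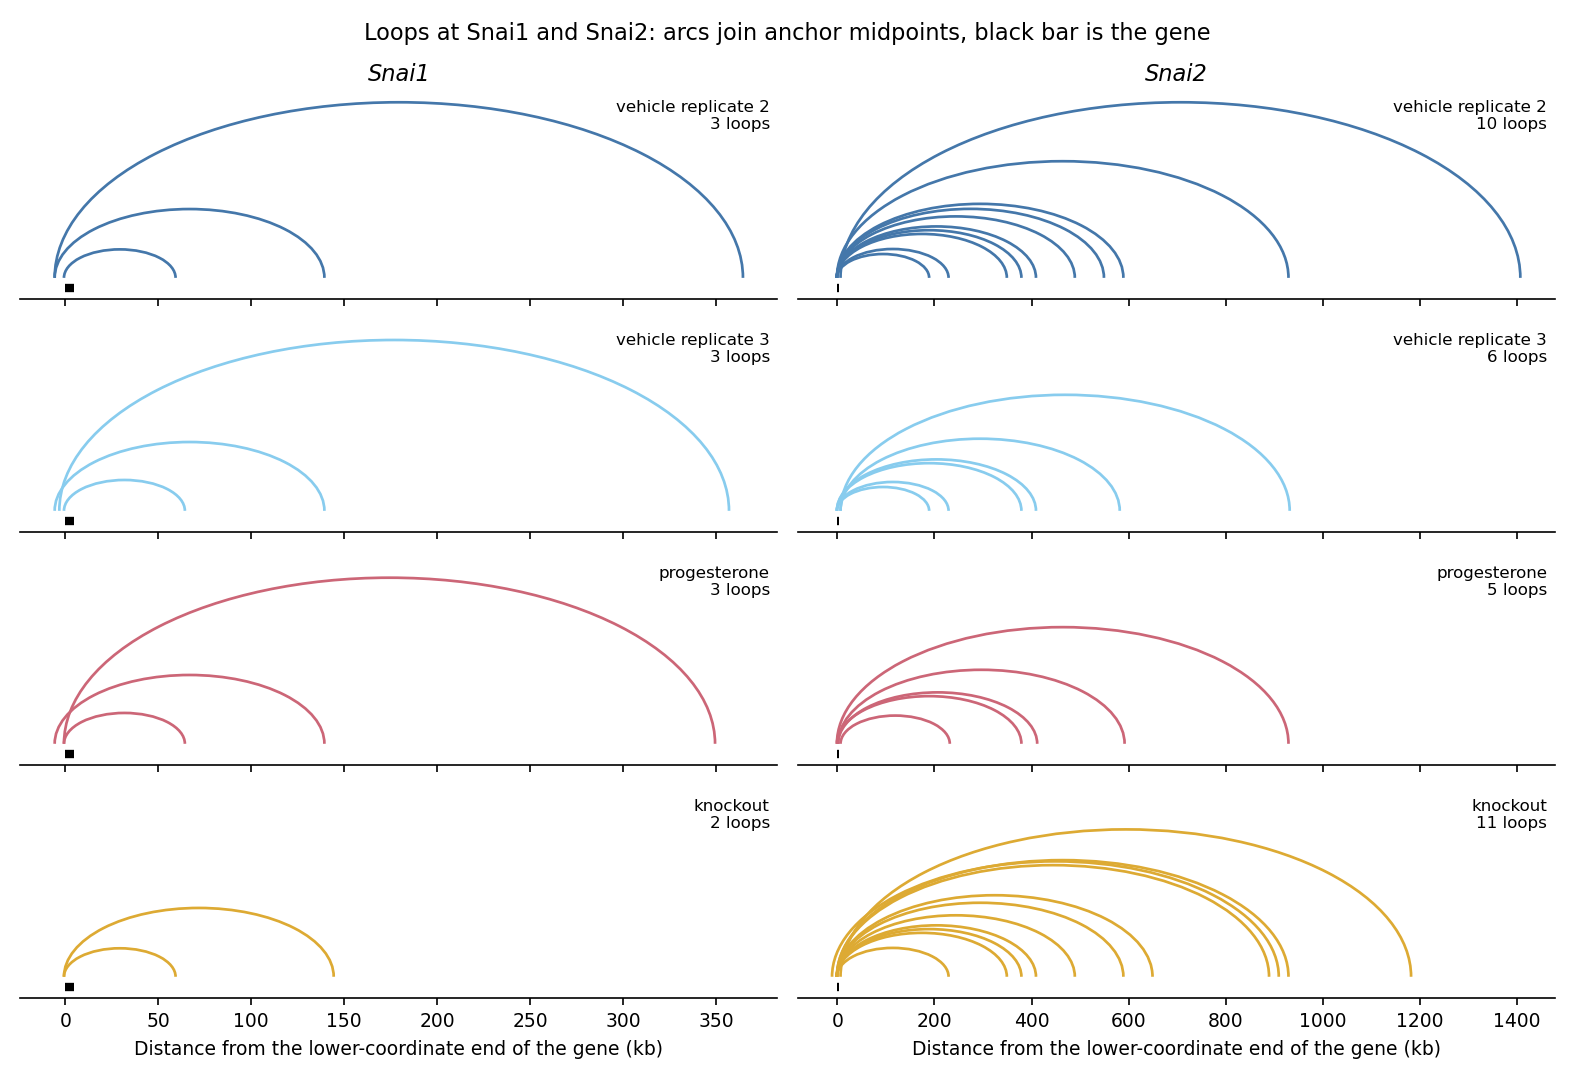
Each arc joins the midpoints of a loop's anchors, plotted as distance in kb from the lower-coordinate end of Snai1 (left) or Snai2 (right), with 1 row per library and the gene as a black bar. Arc height is proportional to length within a column. Every arc runs to the right, and the 350 to 370 kb arc at Snai1 is missing from the knockout row.

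Zeb1 spans 184.1 kb on chromosome 18 (5591327 to 5775468), with Zfp438 256.5 kb away on the lower side and Arhgap12 249.0 kb away on the higher side. Its loops left one end of the gene in both directions. In 13 of 14 loops the near anchor held the lower-coordinate edge, and in none did it hold the higher-coordinate edge. Loops to the lower and higher side numbered 3 and 1 in vehicle replicate 2, 1 and 1 in vehicle replicate 3, and 2 and 2 in each of the other lists.

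Of 5 distinct Zeb1 loops, those of 395 to 400 kb to the higher side and 430 to 450 kb to the lower side were called in all 4 lists. The latter ended at the noncoding gene Gm26682, named after its position was seen. A 250 to 260 kb loop ended in Zfp438, a zinc finger gene, in vehicle replicate 2, progesterone and knockout. A 225 kb loop to the higher side, which crosses the whole gene, was called with progesterone and in the knockout only. A 460 kb loop was called only in vehicle replicate 2. Both Zeb1 loops of vehicle replicate 3 had 25 kb anchors, so this gene had 0 loops there without that anchor size.

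Pooled over the 4 lists, the far anchors of Zeb1 were joined to each other at least as often as to the gene. Loops between these pooled anchors numbered 6 and 5 in vehicle, 4 with progesterone and 6 in the knockout, against 4, 2, 4 and 4 loops at the gene. In vehicle replicate 3, no listed loop joined the 2 far anchors that Zeb1 reached in that list. Each of its 5 loops used an anchor that Zeb1 reached only in other lists. The loops that passed over the whole gene numbered 4 and 3 in vehicle, 3 with progesterone and 5 in the knockout. Of all protein-coding genes, 5.74% and 4.84% were passed over by at least as many in vehicle, 6.8% with progesterone and 4.9% in the knockout. The 650 to 655 kb loop between the far anchors beyond each end of the gene was called in every list, and it holds Zeb1 within it.

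Zeb2 spans 133.9 kb at chr2:44983512-45117442 on the minus strand, so its 4 annotated start sites lie at the higher-coordinate end. It sits in a gene-poor stretch. Only 2 protein-coding genes lie within 1 Mb, against a median of 29.0 over all protein-coding genes, and 1.06% of genes have 2 or fewer. Gtdc1 is 55.8 kb away on the lower side, and the next gene on the higher side, Acvr2a, is 3696.7 kb away. An anchor held a Zeb2 start site in 27 of 31 loops, namely 9 of 10 and 3 of 4 in vehicle, 6 of 6 with progesterone and 9 of 11 in the knockout. Apart from a 25 kb anchor in vehicle replicate 2 and in the knockout, such anchors lay in chr2:45110001-45120000, as the whole 10 kb bin or a 5 kb bin within it. This stretch contains both Zeb2 promoters printed above.

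Most Zeb2 loops crossed into the gene-poor side. Of the 31 loops, 20 ran to higher coordinates, 9 to lower coordinates and 2 stayed inside the gene. Far anchors lay within 10 kb of a protein-coding gene in 9 of the 29 loops that left the gene, and elsewhere in the remaining 20. All 9 overlapped a gene body. Gtdc1, which encodes a glycosyltransferase-like protein, was met in all 4 lists, by 3 and 1 loops in vehicle, 1 with progesterone and 3 in the knockout. Arhgap15, which encodes a Rac GTPase-activating protein, was met by 1 knockout loop of 970 kb.

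Zeb2 had 15 distinct loops, of which 3 were called in all 4 lists. They joined the start-site region to the Gtdc1 edge over 180 to 185 kb, to chr2:45510001-45520000 over 400 to 405 kb, and to chr2:46440001-46450000 over 1325 to 1330 kb. In vehicle replicate 3 the near anchor of the loop to Gtdc1 was the neighbouring bin chr2:45105001-45110000, which held no start site. The far anchor of the longest loop lies at the noncoding gene Gm13470, named after its position was seen. That anchor carried 6 and 4 loops in vehicle, 7 with progesterone and 7 in the knockout. A 300 kb loop was called in all lists but vehicle replicate 3. An internal loop of 85 to 90 kb was called in vehicle replicate 2 and with progesterone.

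The knockout list held more contacts around Zeb2 that did not use the gene itself. Loops between far anchors of Zeb2, pooled over the 4 lists, numbered 6 and 4 in vehicle, 6 with progesterone and 17 in the knockout. No vehicle loop of at most 2 Mb passed over the gene, 1 did with progesterone and 7 did in the knockout. In the knockout 5 of these 7 began at the Gtdc1 edge, at chr2:44920001-44930000 or within it. Of all protein-coding genes, 1.53% were passed over by at least 7 knockout loops. Among the 10537 genes passed over by no vehicle loop it was 2 (0.019%), a count whose limits were set by Zeb2 itself. The knockout has 1 library and the longest list, and the part of list length in this difference was not tested.

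**Figure D3:**
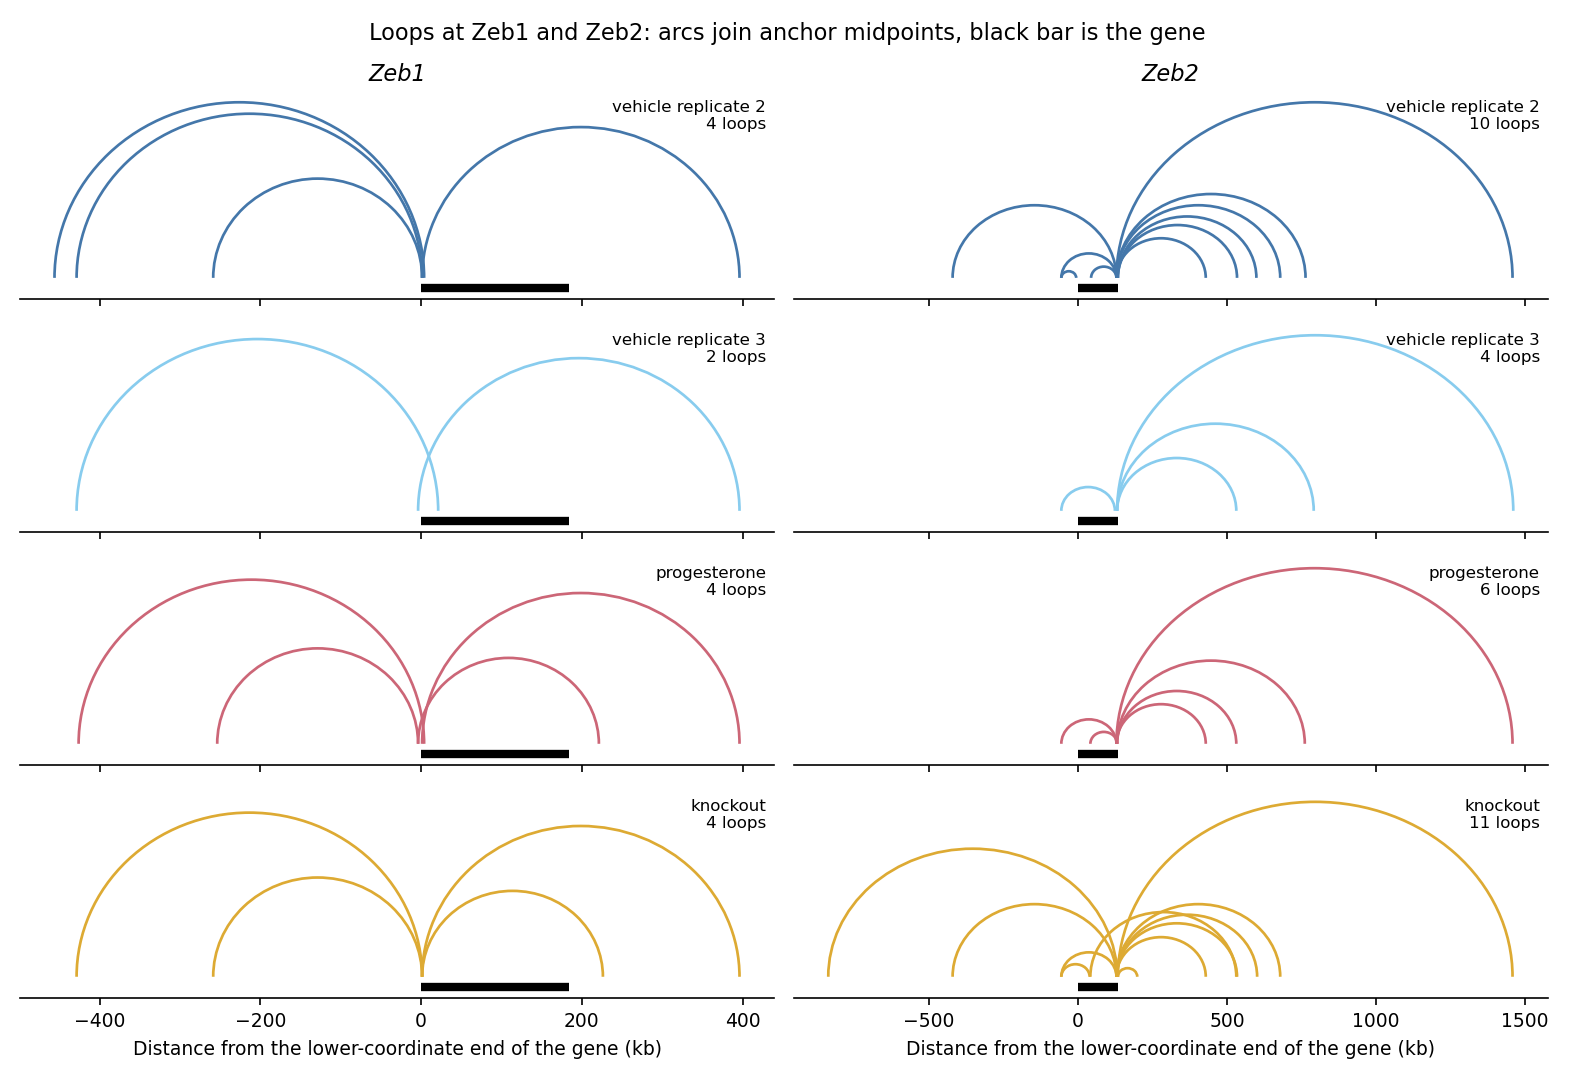
Arcs join the anchor midpoints of each loop at Zeb1 (left) and Zeb2 (right), as distance in kb from the lower-coordinate end of the gene, with 1 row per library and the gene as a black bar. Arc height is proportional to length within a column. Zeb1 arcs leave the left end of the gene on both sides, and Zeb2 arcs gather at the right end, where its start sites lie, with the 1325 to 1330 kb arc in all 4 rows.

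Across the 4 genes, the 88 loops reduced to 36 distinct loops, of which 12 were called in all 4 lists, 3 in 3 lists, 9 in 2 lists and 12 in 1 list. Snai1 had 2 of its 3 in all lists, Snai2 5 of 13, Zeb1 2 of 5 and Zeb2 3 of 15. Of the distinct loops in 1 list, 7 were in the knockout, 4 in vehicle replicate 2 and 1 in vehicle replicate 3. The progesterone list held no distinct loop of its own at these genes, on 18 loops. Over the 4 lists together, 12369 of all 59353 loops matched no other list, beside 12 of the 88 here. That share was not computed for each list, so the counts by list have no background and mark no trait of a condition. A loop was taken as shared when both anchors overlapped after 10 kb was added to the anchors of 1 of the lists.

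Looked for in the whole of each other list, 76 of the 88 loops had a match in at least 1, which is 86.4% (95% exact binomial interval 77.4% to 92.8%). The share over every loop of the 4 lists was 79.2%. A match in all 4 lists was found for 54.5% (43.6% to 65.2%), beside 43.3% of every loop. The first background value lies within its interval and the second lies just below its own. The intervals cover counting error only and treat loops as independent although many share an anchor. A loop called in several lists is also counted again in each of them, and the genes were chosen on loop values. The intervals are therefore no test of the 4 genes against the lists. By distinct loop, 12 of 36 (33.3%) were called in all 4 lists. By gene, the share in all 4 lists was 72.7% of 11 loops at Snai1, 62.5% of 32 at Snai2, 57.1% of 14 at Zeb1 and 38.7% of 31 at Zeb2. The intervals of Snai1 (39.0% to 94.0%) and Zeb2 (21.8% to 57.8%) overlapped.

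**Figure D4:**
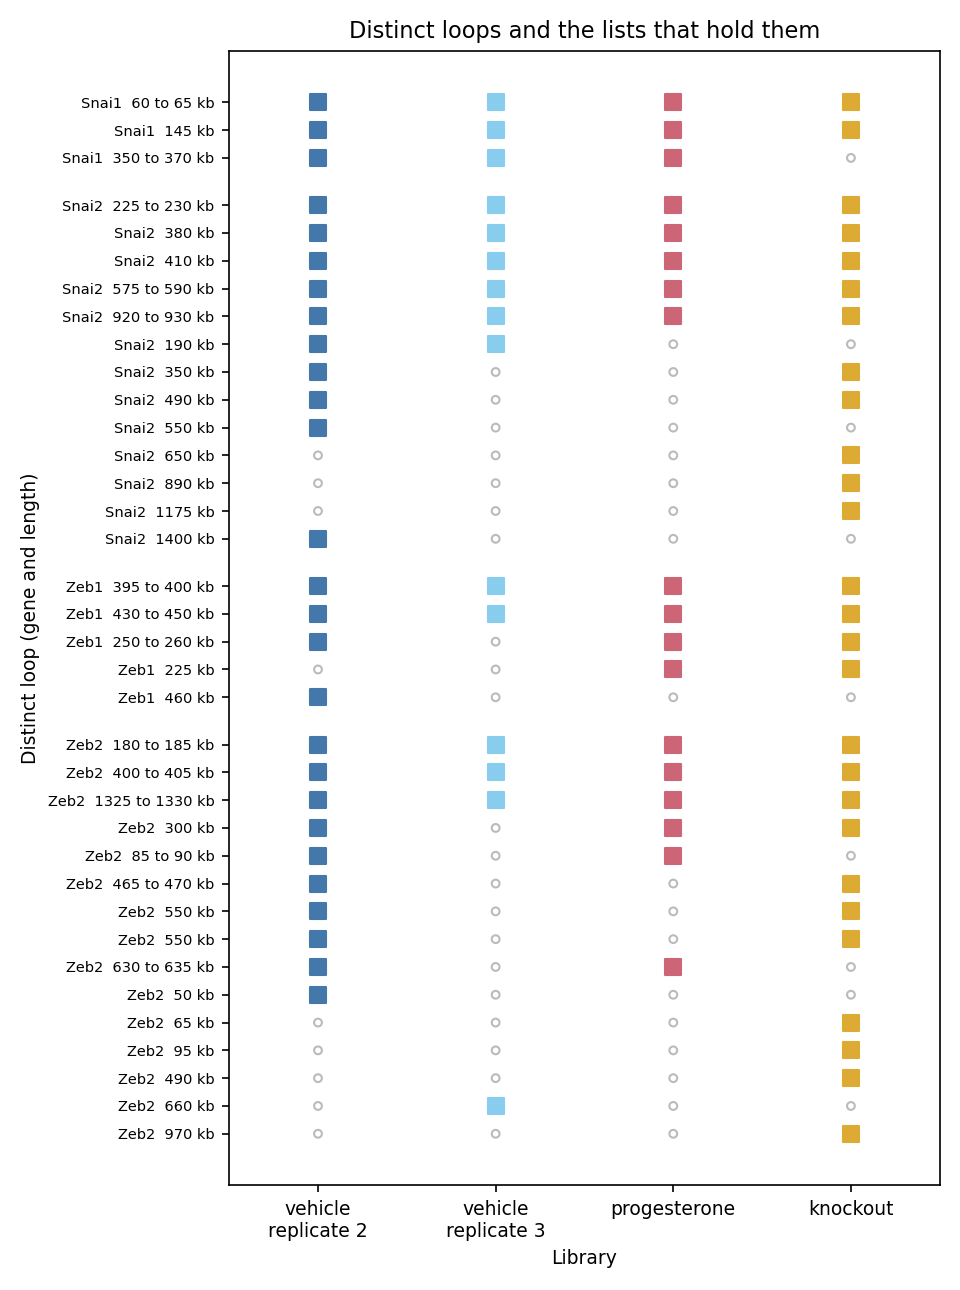
Rows are the 36 distinct loops, grouped by gene and labelled with their length range, and columns are the 4 libraries. Filled squares mark lists that hold the loop and open circles lists that do not. The 12 rows filled in every column comprise 2 at Snai1, 5 at Snai2, 2 at Zeb1 and 3 at Zeb2.

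The vehicle replicates set the error for any comparison of conditions. Only 14 of the 27 loops of vehicle replicate 2 (51.9%) were found in vehicle replicate 3, close to the 49.2% of all its loops. In the other direction, 14 of 15 (93.3%) were found, beside 85.7% of all. More loops of vehicle replicate 2 were found with progesterone (17, or 63.0%) and in the knockout (19, or 70.4%) than in its own replicate, in the order of the list lengths.

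Few loops separated progesterone or knockout from both vehicle lists. Of the 14 loops that vehicle replicate 2 shared with vehicle replicate 3, 1 (7.14%) had no match with progesterone and 2 (14.3%) had none in the knockout, beside 15.1% and 10.0% of all such loops. The 1 was the 190 kb loop of Snai2, and the 2 were that loop and the 350 to 370 kb loop of Snai1. With progesterone, 1 of 18 loops (5.56%) matched neither vehicle list, the 225 kb loop of Zeb1, beside 14.8% of all progesterone loops. In the knockout, 8 of 28 (28.6%) matched neither vehicle list, beside 40.6% of all knockout loops. These 8 comprised 3 at Snai2, 1 at Zeb1 and 4 at Zeb2.

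Loops at Snai2, Zeb1 and Zeb2 were long, and those at Snai1 were not. The median over the 4 genes was 400 kb in both vehicle lists, 365 kb with progesterone and 420 kb in the knockout, beside list medians of 185, 200, 190 and 150 kb. With 5 kb anchors only, the medians of the 4 genes fell to 145 kb in vehicle replicate 3 and 260 kb in the knockout, on 3 and 13 loops. Snai2 had medians of 450 and 395 kb in vehicle, 410 kb with progesterone and 590 kb in the knockout. Zeb2 had 432.5 and 530 kb in vehicle, 350 kb with progesterone and 470 kb in the knockout. The ranges of these genes overlapped in every list.

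Zeb1 medians were 412.5 and 425 kb in vehicle, 322.5 kb with progesterone and 327.5 kb in the knockout. Its lower values in the last lists went in part with the added 225 kb loop. The vehicle lists also differed by the 460 kb loop, called only in replicate 2, and the 250 to 260 kb loop, not called in replicate 3. Snai1 medians were 145 kb in the 3 WT lists and 102.5 kb in the knockout, where its longest loop was not called. Of all genes with a loop, 13.4% and 17.0% had a median length at or above that of Snai2 in vehicle, 16.0% with progesterone and 7.6% in the knockout. For Zeb1 these shares were 15.4% and 15.0% in vehicle, 22.8% with progesterone and 18.4% in the knockout, and for Zeb2 they were 14.2%, 9.44%, 20.3% and 11.0%. For Snai1 they were 53.9%, 57.8%, 55.1% and 62.4%.

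**Figure D5:**
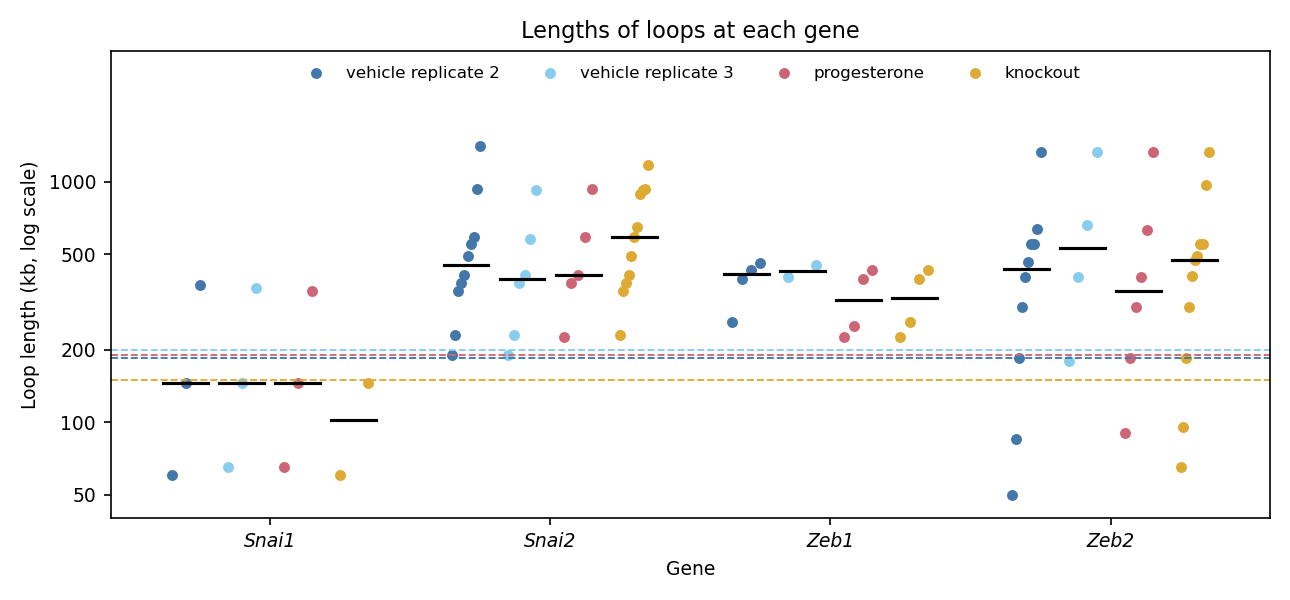
Points are single loops at each gene in each library, on a log scale in kb, black bars are medians, and dashed lines in the library's colour are the medians of the whole lists. At Snai2, Zeb1 and Zeb2 every median lies above the dashed lines, and at Snai1 every median lies below them.

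The anchor size limits where a loop can be placed within the genes. Of the 88 loops, 39 had 5 kb anchors, 37 had 10 kb and 12 had 25 kb. Snai2 was read mostly at 10 kb (25 of 32 loops), which is longer than the gene, whereas 20 of 31 Zeb2 loops had 5 kb anchors. A match in another list was found for 36 of the 39 loops with 5 kb anchors, 30 of the 37 with 10 kb and 10 of the 12 with 25 kb, when all anchor sizes of the other list were searched. Over every loop of the lists these shares were 82.8%, 74.9% and 73.6%.

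Genes that act with the family were counted at the same window, in 5 lists of 59 genes. Of all protein-coding genes, 38.8% had a loop in all 4 libraries, the share to set beside each count. The 5 lists were not tested against that share or against each other. Of the 11 inducers, which include the TGF-beta ligands, receptors and Smads, 8 had a loop in all 4 lists. Examples were Jag1, a Notch ligand, with 6 and 3 loops in vehicle, 4 with progesterone and 7 in the knockout, and Tgfb3 with 5, 3, 4 and 4 loops in the same order. Smad2 had none in any list. Of 9 other transcription factors of the transition, 6 had a loop in all 4 lists, and Tcf4, a basic helix-loop-helix factor, had the most loops of the 59 genes, 14 and 12 in vehicle, 15 with progesterone and 23 in the knockout. Snai3, the third Snai gene, had 2 loops in the knockout and 0 in the other lists, and was named for its family.

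Of 10 corepressor genes, 6 had a loop in all 4 lists and Suz12, a Polycomb subunit, had none. Ctbp2, which encodes a corepressor bound by Zeb proteins, had 6 and 3 loops in vehicle, 4 with progesterone and 10 in the knockout. Of 15 epithelial genes that the family represses or that oppose it, 6 had a loop in all 4 lists. That is close to the 38.8% of all protein-coding genes. Cldn3, a tight junction gene, had none. Cdh1, the classic target of all 4 repressors, had 4 and 3 loops in vehicle and 4 in each other list. Of 14 mesenchymal genes, 11 had a loop in all 4 lists. Among them were the cadherin gene Cdh11 (8, 4, 5 and 14 loops) and the collagen gene Col3a1 (7, 4, 5 and 8 loops). Others had few, such as Cdh2 with 1, 1, 2 and 2 loops. Fn1, Lox and Tagln, named to complete this list, each had no loop in at least 1 library.

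Taking the 5 lists as a whole, 48 of 59 genes (81.4%) had a loop in vehicle replicate 2, 41 (69.5%) in vehicle replicate 3, 46 (78.0%) with progesterone and 52 (88.1%) in the knockout. The medians were 2.0, 1.0, 2.0 and 3.0 loops, beside 1.0, 0.0, 1.0 and 1.0 over all protein-coding genes. A loop in all 4 lists was found for 37 of the 59, beside 38.8% of all protein-coding genes, and 3 of the 59 had none, beside 29.7%. Every member gene exceeded the median of the 5 lists in vehicle replicate 2, and Snai1 fell below it in the knockout.

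By loop number over the 4 libraries, the gene most like Zeb2 was Thsd4, with a summed absolute difference of 1 loop (10, 4, 6 and 10 loops). Snai2 was nearest to Ccbe1, Galnt7 and Ssbp2, each with a difference of 2. Snai1 had 9 genes with the same 4 numbers, of which Becn2, Cdhr3 and Cdk18 come first by symbol, and Zeb1 had 16, of which 1810013L24Rik, Adamts2 and Camk2g come first. Small counts over 4 libraries tie easily.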

How the data were processed

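Hi-C libraries were made from mouse uterus with the Arima Hi-C kit, per the labels' protocols. Juicer 1.5.6 and mm10 are named in the submitters' processing notes. The loop caller, its thresholds and the read depth were not given in the sources used here. The deposited lists hold anchor positions only, 2 intervals a loop, with no contact counts, 1 list for each of 4 libraries. The members and lists were chosen with earlier results of these data known. Estradiol samples were not analysed here.

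Positions were converted to 1-based coordinates. Gene bodies of 21631 protein-coding genes came from RefSeq (GRCm38.p6). Loop length is the distance between anchor starts. Loops of 2 lists were matched when both anchors overlapped after adding 10 kb to those of 1 list, and distinct loops are chains of matches at a gene. Python 3.11.15 with pandas 2.3.3, numpy 2.4.6 and scipy 1.17.1 was used, with exact Clopper-Pearson intervals at 95%. The matching code was run on an altered copy of the vehicle replicate 2 list, where 100% of kept loops and 0% of moved loops matched. Kept loops were shifted by less than the matching distance and the others were moved far away. Moved loops that lay near a kept loop were left out. Both values were thus fixed by construction and check the code only. False matches between nearby loops of real lists were not tested.

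Named genes were the members, their nearest protein-coding neighbours, up to 8 protein-coding genes at far anchors, pathway genes looped in all or no lists, and up to 3 genes of most similar loop number. Exceptions are stated. Alternatives varied the gene window, anchor sizes, matching distance and libraries. No differential test was made, as 2 groups have 1 library each.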

Additional observations from a re-analysis of the deposited data

How the results depend on the processing

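No paired analysis was possible because the vehicle and progesterone groups share only replicate number 2. With loops of 5 kb anchors only, the 4 genes had 15, 3, 8 and 13 loops in vehicle replicates 2 and 3, progesterone and knockout. Their median lengths were then 370, 145, 347.5 and 260 kb, 3 distinct loops were in all lists and 74.4% of loops had a match in another list. Without 25 kb anchors the median lengths were 395, 360, 397.5 and 407.5 kb, and 7 distinct loops were in all lists. With 0 kb added to the gene the medians were 420 kb in vehicle replicate 2, 380 kb with progesterone and 410 kb in the knockout, and with 25 kb added they were 380 kb with progesterone and 430 kb in the knockout. Leaving out a vehicle replicate gave matched shares of 73.8% (without replicate 2) and 82.2% (without replicate 3), and 12 and 14 distinct loops in all remaining lists. Leaving out anchor sizes leaves fewer loops. With 0 kb added when matching, 8 distinct loops were in all lists and 80.7% of loops had a match in another list. With 25 kb added when matching, these values were 11 and 89.8%. Adding 10 kb to the anchors of both lists, chosen after the data were seen, gave 12 distinct loops and 88.6%. Without the progesterone or the knockout list, also chosen then, the shares were 78.6% and 81.7%. Of 72 loop numbers by gene and library under the alternatives, 60 were within 1.5 times the reported number, and 9 of the 12 others came with 5 kb anchors only, where 7 of 16 were. Of 67 median lengths by gene and library, 47 lay within the vehicle SD of the reported median and 20 lay outside it. The start-site alternative was run for Snai1 and Zeb2 only, so totals over the 4 genes were not run for it. Groups of 2, 1 and 1 libraries allow no check for outlying samples, and unknown depth limits what an uncalled loop means.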

Other observations

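The miR-200 microRNAs, which bind the Zeb1 and Zeb2 messages and are repressed in turn by the Zeb proteins, lie at 2 loci that were added after the lists were seen. With 10 kb added on each side, the locus of Mir200b, Mir200a and Mir429 at chr4:156053905-156055750 had 1 and 0 loops in vehicle, 0 with progesterone and 1 in the knockout. The locus of Mir200c and Mir141 at chr6:124717914-124718390 had 2 and 0 loops in vehicle, 1 with progesterone and 5 in the knockout. Both were without a loop in vehicle replicate 3, the shortest list, in which only 45.3% of protein-coding genes had at least 1. The Snai and Zeb genes were chosen on loop values, so they give no fair comparison for these loci. The mature microRNAs are shown because they tie these loci to the Zeb genes. The capitals mark the seed (bases 2 to 8), and the 5 fall into groups that share AACACUG (miR-141 and miR-200a) or AAUACUG (miR-200b, miR-200c and miR-429). Sequences are from RefSeq (GRCm38.p6), 5′ to 3′.
miR-141-3p: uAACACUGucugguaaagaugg
miR-200a-3p: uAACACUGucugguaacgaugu
miR-200b-3p: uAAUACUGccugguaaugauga
miR-200c-3p: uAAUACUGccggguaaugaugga
miR-429-3p: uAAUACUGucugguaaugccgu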
